A study of Rattus norvegicus with 16 samples.

Results

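The genes described here are the chemokines, the interleukins and their receptors. They were chosen by symbol (Ccl, Cxcl, Cx3cl, Ccr, Cxcr, Cx3cr or Il followed by a digit) among the 22517 gene symbols of the deposited expression files. Of 128 symbols that matched, 60 reached 1 FPKM (fragments per kilobase of transcript, scaled to the size of the library) in at least 4 of the 16 files and were kept. The other 68 were left out for their level, and 15 of them were listed at 0 in every file. Il6, Il10, Cxcr3, Cx3cr1, Ccr7, Cxcl2 and Il1r2 were among those left out. Just inside the limit were Il28ra, at that level in 4 files, Il7r in 5 and Ccl22 in 6, and just outside it were Ccl27, Il10 and Il24, each in 3. The 60 genes were 23 chemokines, 6 chemokine receptors, 10 interleukins, 19 interleukin receptors and the inhibitors Il1rn and Il18bp. Of these, 7 carry older symbols in the files, among them Cxcr7 (now Ackr3), Il8rb (Cxcr2), Il1f8 (Il36b), Il28ra (Ifnlr1), Il6ra (Il6r) and Il4ra (Il4r).

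The study measured RNA in liver and epididymal fat of obese male Zucker diabetic fatty rats (ZDF/GmiCrl-fa/fa). All rats carried the fa allele of the leptin receptor on both chromosomes, so no lean rats entered any comparison. From 9 weeks of age, and for 2 weeks, the rats received Purina 5008 chow either with R-α-lipoic acid, a sulphur-containing enzyme cofactor taken as a supplement (lipoic acid group), or without it as pair-fed controls (pair-fed group). In pair-feeding the controls receive a ration set by what the treated animals eat. Each tissue and feed had 4 libraries, made from whole tissue of 8 rats killed at 11 weeks. The labels do not say which liver and which fat library came from the same rat.

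Chemokines are small secreted proteins that bind G-protein-coupled receptors and guide the migration of leukocytes. Cxcl9, Cxcl10 and Cxcl11 share the receptor Cxcr3 and are textbook targets of interferon. Ccl2 and Ccl7 draw monocytes through Ccr2 and are well known from macrophage-rich obese fat. Interleukins of the IL-1 family signal through Il1r1 with its partner Il1rap, and Il1rn, the interleukin-1 receptor antagonist, occupies the same receptor without signalling. In the liver, hepatocytes, endothelial cells, stellate cells and the resident macrophages called Kupffer cells all contribute such transcripts.

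The genes Cxcl11, Cxcl10 and Cxcl9 lie in this order on rat chromosome 14, and the 250 bases before each start are printed because these neighbours share a receptor and hold the gene with the largest feed difference in liver among the 40 tested, Cxcl10. The sequences are RefSeq's on build GRCr8, plus strand: chr14:16006916-16007165 for Cxcl9, chr14:15988816-15989065 for Cxcl10 and chr14:15973478-15973727 for Cxcl11. Capitals mark matches, on either strand, to an interferon-stimulated response element core (GAAANNGAA), an NF-kB site (GGANNTTCC) or an interferon-gamma activated site (TTCNNNGAA).
Cxcl9: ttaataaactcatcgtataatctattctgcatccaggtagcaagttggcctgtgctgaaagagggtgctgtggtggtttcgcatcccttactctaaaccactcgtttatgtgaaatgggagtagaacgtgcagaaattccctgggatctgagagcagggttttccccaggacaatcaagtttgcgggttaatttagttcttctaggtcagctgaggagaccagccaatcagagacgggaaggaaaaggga
Cxcl10: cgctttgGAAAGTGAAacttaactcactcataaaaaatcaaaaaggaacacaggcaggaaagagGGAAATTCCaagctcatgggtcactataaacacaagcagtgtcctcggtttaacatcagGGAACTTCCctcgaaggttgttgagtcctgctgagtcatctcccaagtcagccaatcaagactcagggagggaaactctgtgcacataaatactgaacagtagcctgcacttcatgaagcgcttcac
Cxcl11: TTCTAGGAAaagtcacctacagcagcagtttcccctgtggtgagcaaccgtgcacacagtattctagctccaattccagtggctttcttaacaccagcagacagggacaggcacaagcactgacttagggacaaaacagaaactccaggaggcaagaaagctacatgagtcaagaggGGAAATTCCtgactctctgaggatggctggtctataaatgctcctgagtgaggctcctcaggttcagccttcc
The Cxcl10 stretch held 1 match to the interferon element, GAAAGTGAA, and 2 to the NF-kB letters, GGAAATTCC and GGAACTTCC. The Cxcl11 stretch held GGAAATTCC nearer to its start, and TTCTAGGAA at its far end. No match to these letters was found in the Cxcl9 stretch, which says nothing about the factors that bind there. None of the marked matches overlapped another. Among 27457 RefSeq promoter stretches of this length, 7.99% held the interferon element, 3.33% the NF-kB letters and 7.52% the activated site. Of the 49 genes described here that had a stretch, 6 held the interferon element (Ccl19, Ccr2, Cxcl10, Il15, Il36b and Il6st), 7 the NF-kB letters and 4 the activated site. A match is a description of letters and not a measured site.

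Between 9522 and 9738 genes reached 1 FPKM in the liver libraries and between 11276 and 11480 in the fat libraries. The value that a single fragment contributed, relative to the first pair-fed liver library, lay between 0.722 and 1 over all 16. Hepatocyte markers summed to 27167 FPKM or more in every liver library and to 1300 or less in every fat library. The adipocyte genes Adipoq, Plin, Lep and Retn were listed at 0 in the pair-fed liver libraries. Alb and Tf, which hepatocytes make in abundance, were also listed at 0 in liver, as was the macrophage marker Emr1 in all libraries, so a 0 in these files can be a missing estimate. In whole tissue, fewer cells of a type and less RNA per cell cannot be told apart.

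In liver the interferon-inducible chemokine Cxcl10 was higher under lipoic acid, and Il1rn, Il1f8, Il33, Il13ra1, Cxcl12 and Ccl24 were lower. The lymphoid chemokine Ccl19 was also called higher, but it reached the test only through the treated livers, so its call is a description. With it these were 2 higher and 6 lower among the 40 genes tested in liver, at an adjusted p under 0.05 in limma. Among all 9710 genes tested, 2.27% were called higher and 2.21% lower. The median log2 fold change was -0.02 over the 40 genes and -0.002 over all genes. The 4 lipoic acid libraries lay wholly above the 4 pair-fed ones for 4 of the genes and wholly below them for 10, against 5.89% and 6.39% of all genes tested. Leaving out pair-fed replicate 1 or 2 brought the 8 calls to 5, and leaving out treated replicate 2 brought the 435 calls over all genes to 208. Fold changes are differences of log2(FPKM + 1), which understates the change of genes near 1 FPKM.

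**Figure D1:**
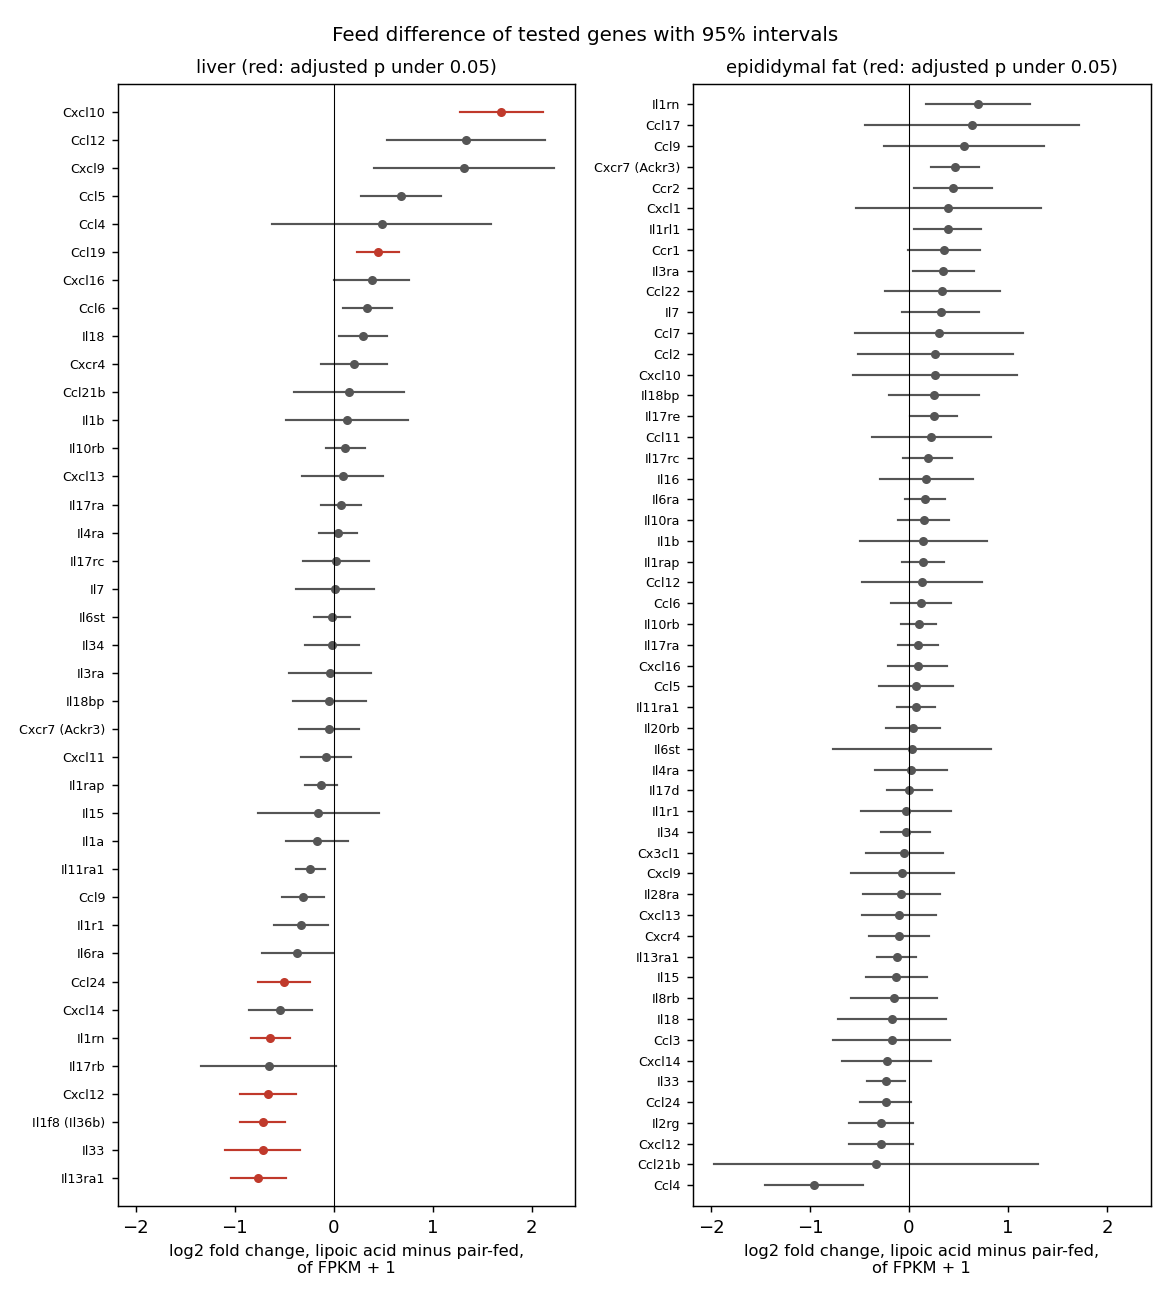
Log2 fold change of FPKM + 1 (x axis), lipoic acid minus pair-fed, for genes tested in liver (left, 39 shown) and in epididymal fat (right, 53 shown); points are limma estimates from 4 libraries a group, lines their 95% intervals, and red marks an adjusted p under 0.05. In liver 8 genes are red, with Cxcl10 at 1.69 farthest right, and in fat none is.

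Cxcl10, which draws activated T cells and natural killer cells, was at 1.12, 2.23, 2.18 and 2.93 FPKM in the pair-fed livers and at 8.81, 8.87, 6.77 and 11.4 FPKM in the lipoic acid livers. The groups did not overlap, and the lowest treated liver stood above the highest control. Its log2 fold change was 1.69 (SE 0.19, limma adjusted p = 0.0011), and it passed in all 15 alternatives run. Cxcl9 was at 7.80, 8.55, 11.6 and 40.3 FPKM in the pair-fed livers and at 29.9, 38.5, 29.2 and 44.8 FPKM under lipoic acid. The pair-fed replicate 4 thus lay within the treated range while the other 3 controls were well below it. The difference was 1.32 (SE 0.41, limma adjusted p = 0.10), and without that library it was 1.82 (adjusted p = 0.0010). Cxcl11 was at 13.1, 12.6, 15 and 16.4 FPKM in the pair-fed livers and 13.6, 11.1, 13.4 and 15.8 FPKM in the treated ones, and the groups overlapped throughout. The level of Cxcl10 relative to Cxcl11 therefore went from a ratio of 0.0849 to 0.179 in pair-fed livers to 0.504 to 0.799 under lipoic acid.

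In fat neither Cxcl10 nor Cxcl9 separated by feed, and Cxcl11 was below the level needed for the fat test, at 0.241 to 1.83 FPKM in pair-fed and 0.615 to 1.13 FPKM in treated fat. Cxcl10 was at 2.77, 3.17, 2.27 and 7.85 FPKM in pair-fed fat and 8.04, 6.25, 2.66 and 2.95 FPKM under lipoic acid, so both groups spanned nearly the same range. Cxcl9 lay between 16.1 and 37.5 FPKM in pair-fed fat and between 22.6 and 30.9 FPKM under lipoic acid. The feed effect on Cxcl10 in fat minus that in liver was -1.43 on the log2 scale (SE 0.45, adjusted p = 0.26), which did not pass. For Cxcl9 it was -1.39 (SE 0.53, adjusted p = 0.43), and -1.89 (adjusted p = 0.017) without pair-fed liver replicate 4. In GRCr8 the gene Art3 overlaps Cxcl10 and Cxcl11 on the opposite strand, and the library kit named in the labels does not mark strand. Art3 averaged 0.758 FPKM in pair-fed liver and 0.616 FPKM in treated liver, but 159 and 160 FPKM in fat, so the fat values of Cxcl10 and Cxcl11 may hold Art3 fragments and their part was not tested.

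**Figure D2:**
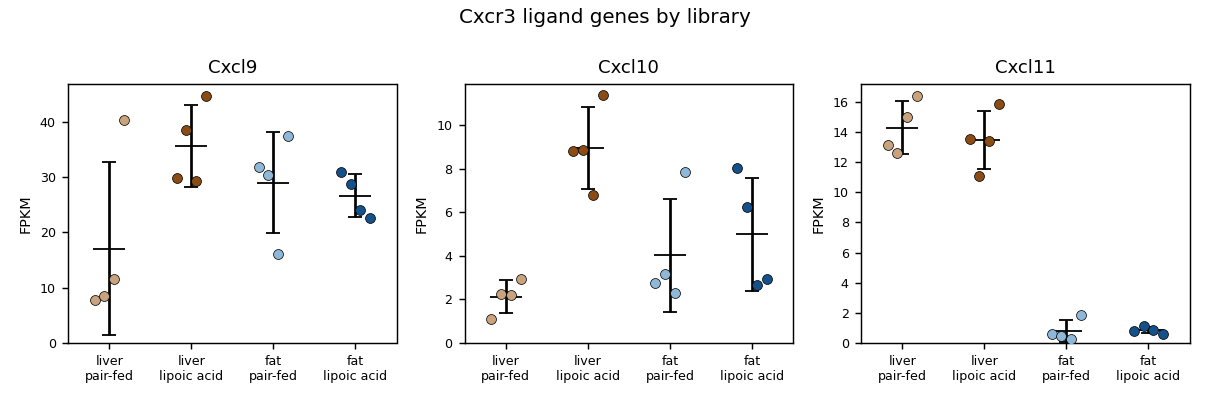
FPKM (y axis, from 0) of Cxcl9, Cxcl10 and Cxcl11 in each of the 16 libraries, by tissue and feed; points are libraries, horizontal bars the mean and whiskers 1 SD (n = 4). Cxcl10 in the treated livers starts at 6.77 FPKM, above the pair-fed maximum of 2.93, Cxcl9 has 1 pair-fed liver at 40.3, and Cxcl11 overlaps between feeds in liver.

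Ccl19, which with Ccl21 guides dendritic cells and naive T cells to lymphoid tissue, was at 0.683, 0.512, 0.740 and 0.874 FPKM in pair-fed livers and 1.22, 1.37, 1.23 and 1.45 FPKM in treated ones. Every treated liver was above every control, by less than 1 FPKM. It entered the liver test only because all 4 treated libraries exceeded 1 FPKM. Its log2 fold change was 0.45 (SE 0.09, limma adjusted p = 0.025), and the adjusted p rose to 0.063 without pair-fed replicate 1, to 0.056 without pair-fed replicate 2 and to 0.36 in the model of all 16 libraries. Ccl21b did not separate, at 2.26 to 2.88 FPKM in pair-fed and 1.35 to 5.74 FPKM in treated livers. Cxcl13, which attracts B cells, was likewise low, at 0.424 to 1.25 FPKM and 0.635 to 1.57 FPKM.

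Among the inflammatory CC chemokines Ccl3, Ccl4, Ccl5, Ccl6, Ccl9 and Ccl12, none passed in liver. Ccl5, made by T cells and natural killer cells among others, was at 2.41, 1.93, 1.67 and 3.08 FPKM in pair-fed livers and 2.58, 5.02, 4.52 and 5.01 FPKM in treated ones (log2 difference 0.68, SE 0.18, adjusted p = 0.063). Without treated replicate 1, the lowest of its group, the adjusted p was 0.013. Ccl12, a monocyte attractant, ranged from 0 to 1.57 FPKM in pair-fed and from 1.05 to 5.86 FPKM in treated livers (1.34, SE 0.36, adjusted p = 0.064). Ccl12 passed without pair-fed replicate 4 (adjusted p = 0.039) and without treated replicate 2 (0.031). Without pair-fed replicate 4 it reached the test only through the treated livers, so that pass is a description. Ccl6, a myeloid-cell chemokine, was at 108 to 154 FPKM and 150 to 185 FPKM (0.34, SE 0.11, adjusted p = 0.12), and passed without pair-fed replicate 4 (0.044). Ccl9, a related chemokine and the most abundant of the 60 genes in liver, had the opposite sign, at 396 to 503 FPKM in pair-fed and 325 to 393 FPKM in treated livers (-0.31, SE 0.10, adjusted p = 0.10). Ccl4 showed no separation, since pair-fed replicate 2 stood at 14.3 FPKM against 1.19 to 3.09 FPKM in the other 3 controls and 2.86 to 8.25 FPKM in the treated livers. Ccl2 and Ccl3 were below the level needed for the liver test. Ccl2 was at 0.151 to 0.524 FPKM in pair-fed and 0.675 to 1.63 FPKM in treated livers, and Ccl3 at 0.137 to 0.405 FPKM and 0.889 to 1.59 FPKM, so both sets of libraries were apart at very low levels.

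Cxcl12, the ligand of Cxcr4 that retains leukocytes and their precursors in tissue, was at 175, 169, 200 and 167 FPKM in pair-fed livers and 105, 91.5, 144 and 113 FPKM in treated ones. All treated livers were below all controls (-0.66, SE 0.13, limma adjusted p = 0.016), and the call held in all 15 alternatives run. Ccl24, an eosinophil attractant, was at 6.24, 4.66, 5 and 5.32 FPKM and then 3.86, 2.69, 3.22 and 4.12 FPKM. The groups did not overlap (-0.50, SE 0.12, limma adjusted p = 0.041), yet leaving out any 1 of the 4 pair-fed libraries, or treated replicate 2 or 3, gave an adjusted p of 0.052 to 0.11. Cxcl14 moved the same way without passing, from 1.32 to 1.85 FPKM in pair-fed to 0.388 to 1.22 FPKM in treated livers (-0.54, SE 0.14, adjusted p = 0.060), and passed without treated replicate 3 (0.035). Without that library Cxcl14 reached the test only through the pair-fed livers, so that pass is a description. Cxcl16 and Cxcl1 overlapped between the groups, at 1.37 to 3.17 against 2.56 to 3.97 FPKM and at 0.238 to 1.42 against 0.477 to 2.47 FPKM.

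In the IL-1 family, the antagonist and 2 ligands fell in liver. Il1rn was at 18.8, 19.3, 18.4 and 23.1 FPKM in pair-fed livers and 12.7, 12.7, 11.1 and 13.1 FPKM in treated ones. The groups were clearly apart (-0.64, SE 0.09, limma adjusted p = 0.0034), and the call was lost in 1 of 15 alternatives, the model of all 16 libraries (adjusted p = 0.070). Il1f8, which encodes the epithelial alarm cytokine IL-36β, was at 6.65, 5.50, 6.96 and 5.87 FPKM and then 3.48, 3.13, 2.98 and 4.07 FPKM, again without overlap (-0.72, SE 0.10, limma adjusted p = 0.0040). These 2 results may not be separate. In GRCr8 the genes lie on opposite strands and overlap, so fragments of one could be counted for the other. The ratio of Il1f8 to Il1rn was 0.253 to 0.378 in pair-fed livers and 0.247 to 0.310 in treated ones. In fat the ratio was lower, at 0 to 0.143 in pair-fed and 0.0294 to 0.0668 in treated libraries. The part of shared fragments was not tested. Il33, a nuclear alarm cytokine released from damaged barrier and stromal cells, was at 50.8, 49.7, 76.2 and 45.9 FPKM in pair-fed livers and 40.6, 28.2, 26.9 and 37.3 FPKM in treated ones. No treated liver reached the lowest control (-0.72, SE 0.17, limma adjusted p = 0.042), but the adjusted p was 0.060 to 0.13 when pair-fed replicate 1, 2 or 3 or treated replicate 2, 3 or 4 was left out.

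The agonists Il1a and Il1b did not pass in liver. Il1a was at 6.51 to 10.6 FPKM in pair-fed and 5.69 to 8.05 FPKM in treated livers. Il1b was at 2.95 to 3.96 FPKM in pair-fed livers and at 2.43, 3.05, 2.80 and 8.75 FPKM in treated ones, where replicate 4 stood alone. Il18, which induces interferon-gamma, was at 5.02 to 5.86 FPKM and 6.04 to 8.81 FPKM, a difference of 0.30 (SE 0.11, adjusted p = 0.15) without overlap. Its inhibitor Il18bp overlapped, at 8.15 to 11.8 FPKM and 6.14 to 11.0 FPKM. The signalling receptor Il1r1 was at 22.8 to 32.1 FPKM and then 16.9 to 22.8 FPKM (-0.33, SE 0.12, adjusted p = 0.16), and its partner Il1rap at 20.9 to 24.4 FPKM and 20.1 to 22.4 FPKM.

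Il13ra1, a subunit of the receptor for the T helper 2 cytokines IL-4 and IL-13, was at 29.4, 28.4, 35.5 and 24.3 FPKM in pair-fed livers and 19.4, 13.9, 18.3 and 16 FPKM in treated ones. It fell by 0.76 on the log2 scale (SE 0.13, limma adjusted p = 0.0083) with no overlap, and the call held in all 15 alternatives run. Il4ra, with which it forms the receptor, was at 22.9 to 26 FPKM and 22.6 to 27.8 FPKM and overlapped. Of the other receptors, Il11ra1 was at 18.5 to 19.4 FPKM and 15.1 to 17.0 FPKM (-0.24, SE 0.07, adjusted p = 0.072). Il6ra, the IL-6 binding subunit, was at 27.1 to 36.1 FPKM in pair-fed livers and at 34.7, 23.2, 22.4 and 18.8 FPKM in treated ones, with replicate 1 inside the control range. Its difference was -0.37 (SE 0.16, adjusted p = 0.24) with that library and -0.54 (adjusted p = 0.034) without it. Il6st, the shared signalling subunit gp130, was at 18.0 to 21.7 FPKM and 17.5 to 21.0 FPKM. Il17rb, a receptor for IL-25, scattered from 10.1 to 26.9 FPKM and from 7.00 to 16.9 FPKM (-0.66, SE 0.31, adjusted p = 0.27). It overlaps Chdh, which averaged 100 FPKM in pair-fed and 97.0 FPKM in treated livers.

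**Figure D3:**
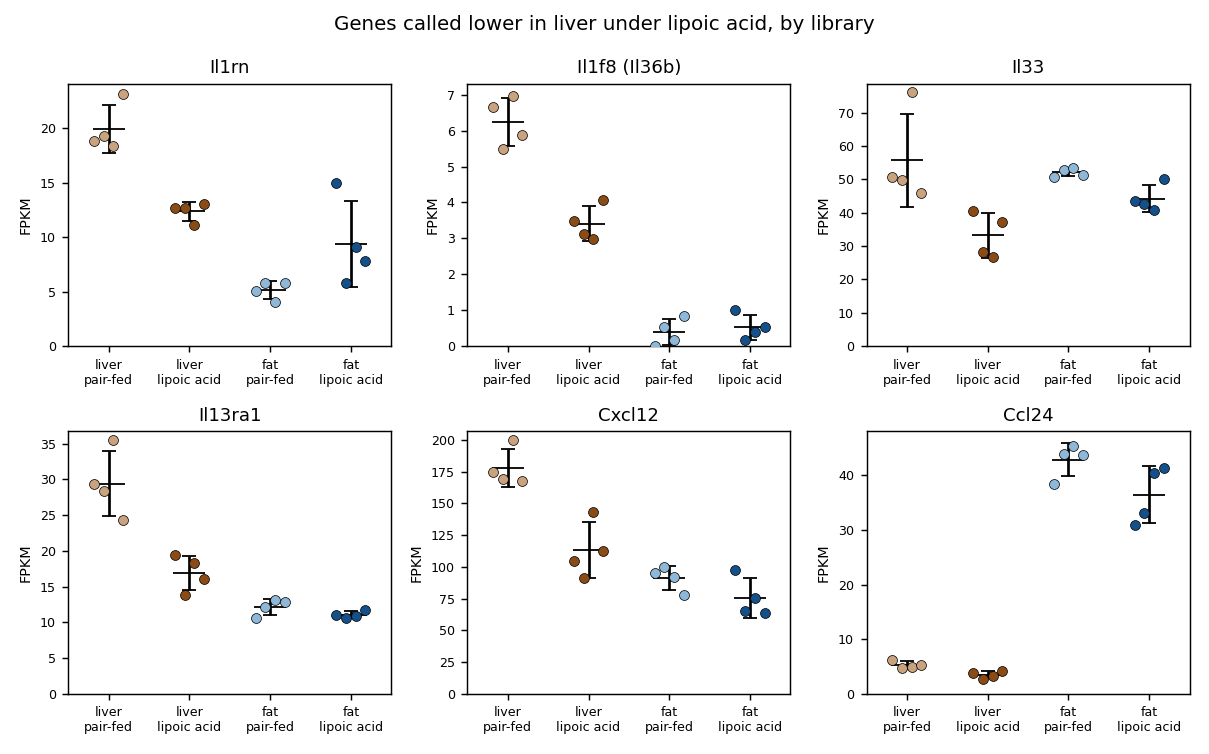
FPKM (y axes, from 0) of the 6 genes called lower in liver under lipoic acid, in each of the 16 libraries by tissue and feed; points are libraries, horizontal bars the mean and whiskers 1 SD (n = 4). In liver the treated libraries lie below all pair-fed ones in each panel, while in fat Il1rn reaches 15 FPKM in 1 treated library.

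The chemokine receptors described here were scarce in liver. Cxcr4 was at 0.572 to 1.39 FPKM and 0.926 to 1.51 FPKM, and Cxcr7 at 1.27 to 1.44 FPKM and 0.725 to 1.82 FPKM. Ccr1 and Ccr2 averaged 0.267 and 0.185 FPKM in pair-fed livers.

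Few other genes of these pathways were called in liver, apart from those that respond to interferon. Of 17 interferon response genes, 12 were called higher and none lower (median 1.64, against -0.002 over all genes), where 2.27% of all genes tested were called higher. This list was chosen with earlier results of these data known, so its count is a description. The list's summed level was 137 to 196 FPKM in pair-fed livers, highest in replicate 4, the library with the high Cxcl9, and 350 to 580 FPKM in treated ones. Casp4, an inflammatory caspase, was called among 4 inflammasome genes (0.75, SE 0.15, limma adjusted p = 0.017), and the prolactin receptor Prlr among 8 related cytokine receptors (-0.72, SE 0.17, adjusted p = 0.035). No gene was called among 19 of IL-1 and Toll-like receptor signalling to NF-kB, 11 feedback inhibitors of cytokine signalling, 11 of chemokine receptor signalling, 5 chemokine system genes or 3 cytokines outside the naming rule.

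Some markers of immune and parenchymal cells moved with the feed in liver as well. Of 10 macrophage markers tested, 3 were called higher, Cd163, Vsig4 and Clec4f, the last a Kupffer cell gene at 48.4 FPKM on average in pair-fed and 77.0 FPKM in treated livers. The list of 15 markers summed to 152 to 183 FPKM in pair-fed and 202 to 274 FPKM in treated livers. Of the natural killer cell markers, 1 of 2 tested was called higher (Klrk1), and the list of 10 summed to 4.75 to 6.94 FPKM and 8.47 to 13.2 FPKM. Called lower were 2 of 7 endothelial markers (Stab2 and Tie1), 1 of 6 stellate cell or fibroblast markers (Lrat) and 2 of 10 hepatocyte markers (Fga and Fgg). The hepatocyte sum was 35536 to 44766 FPKM in pair-fed and 27167 to 32947 FPKM in treated livers. The endothelial sum (52.6 to 57.9 and 49.9 to 54.1 FPKM) and the stellate cell or fibroblast sum (14.3 to 19.4 and 11.8 to 15.8 FPKM) overlapped between the feeds. Of the tested markers of these 2 lists, 3 endothelial and 2 stellate cell or fibroblast ones had a positive fold change. The part of these shifts in the chemokine and interleukin values was not tested.

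In epididymal fat no gene of the 54 tested was called with limma, where 2 of 11501 genes in all (0.0174%) were. Unadjusted, 9 of the 54 had a p under 0.05, as did 451 of the 11501. The fold change was positive for 35 and negative for 19, where it was positive for 6361 and negative for 5140 of all genes. The median was 0.09 against 0.01 over all genes. The treated libraries lay wholly above the controls for 1 gene, Cxcr7, and wholly below for 1, Il33, where 1.32% and 0.756% of all genes did so.

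Cxcr7, a scavenging receptor for Cxcl12 and Cxcl11, was at 75.6, 77.0, 88.0 and 75.3 FPKM in pair-fed fat and 110, 112, 92.6 and 125 FPKM under lipoic acid. The groups were apart (0.47, SE 0.11), yet the adjusted p was 0.95. Ccl4 was at 3.43, 3.68, 1.87 and 4.27 FPKM in pair-fed fat and 2.06, 0.878, 0.999 and 0.898 FPKM in treated fat, with 1 treated library above the lowest control (-0.96, SE 0.22, adjusted p = 0.95). Il33 was at 50.8 to 53.5 FPKM and 40.9 to 50.1 FPKM (-0.24, SE 0.08, adjusted p = 1.00). Il1rl1, the receptor of IL-33, was at 2.49 to 2.87 FPKM and 2.74 to 5.17 FPKM (0.39, SE 0.15, adjusted p = 1.00).

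Il1rn was the gene whose feed difference parted the tissues. In fat it was at 5.07, 5.76, 4.00 and 5.78 FPKM in pair-fed and 15, 5.76, 9.12 and 7.78 FPKM in treated rats, so that 3 of 4 treated fat libraries were above every control while all 4 treated livers were below every control. The fat difference alone was 0.70 (SE 0.23, adjusted p = 1.00), and 0.47 without treated replicate 1. The difference of the feed effects, fat minus liver, was 1.34 (SE 0.26, limma adjusted p = 0.039), the only one of 60 genes called, where 0.149% of 12079 genes were called in that direction. The call was lost in 16 of the 22 alternatives, with an adjusted p of 0.051 to 0.092, among them leaving out any 1 of the 8 liver libraries, any 1 of the 4 pair-fed fat libraries, or treated fat replicate 3 or 4. Next in order were Il13ra1 (0.64, adjusted p = 0.11), Il1f8 (0.86, 0.23), Cxcl10 and Ccl3 (-0.95, 0.27). Il6ra passed without treated liver replicate 1 (0.70, adjusted p = 0.045).

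The monocyte attractants and their receptors did not pass in fat. Ccl2 was at 33.8, 43.1, 24.9 and 57.9 FPKM in pair-fed fat and 91.9, 28.2, 39.9 and 42.9 FPKM in treated fat. Ccl7 was at 24.2, 36.5, 21.5 and 52.5 FPKM and then 82.1, 24.8, 39.8 and 29.2 FPKM. In both, treated replicate 1 was the highest of all 16 libraries and the other 3 lay within the control range. Ccr2, the receptor of both, was at 6.24, 5.83, 5.34 and 4.66 FPKM and then 9.05, 5.08, 8.47 and 9.53 FPKM (0.44, SE 0.17, adjusted p = 1.00). Ccr1 was at 31.2 to 45.5 FPKM and 36.3 to 58.7 FPKM. In both receptors treated replicate 2 stayed within the control range. The macrophage markers summed to 923 to 1376 FPKM in pair-fed fat and 2548, 1283, 1694 and 1390 FPKM in treated fat, again highest in replicate 1, and none of the 11 tested was called. Their part in these values was not tested. No gene was called in fat on any pathway list, although all 17 interferon response genes had a positive fold change (median 0.56, against 0.01 over all genes). That list was chosen with earlier results of these data known.

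**Figure D4:**
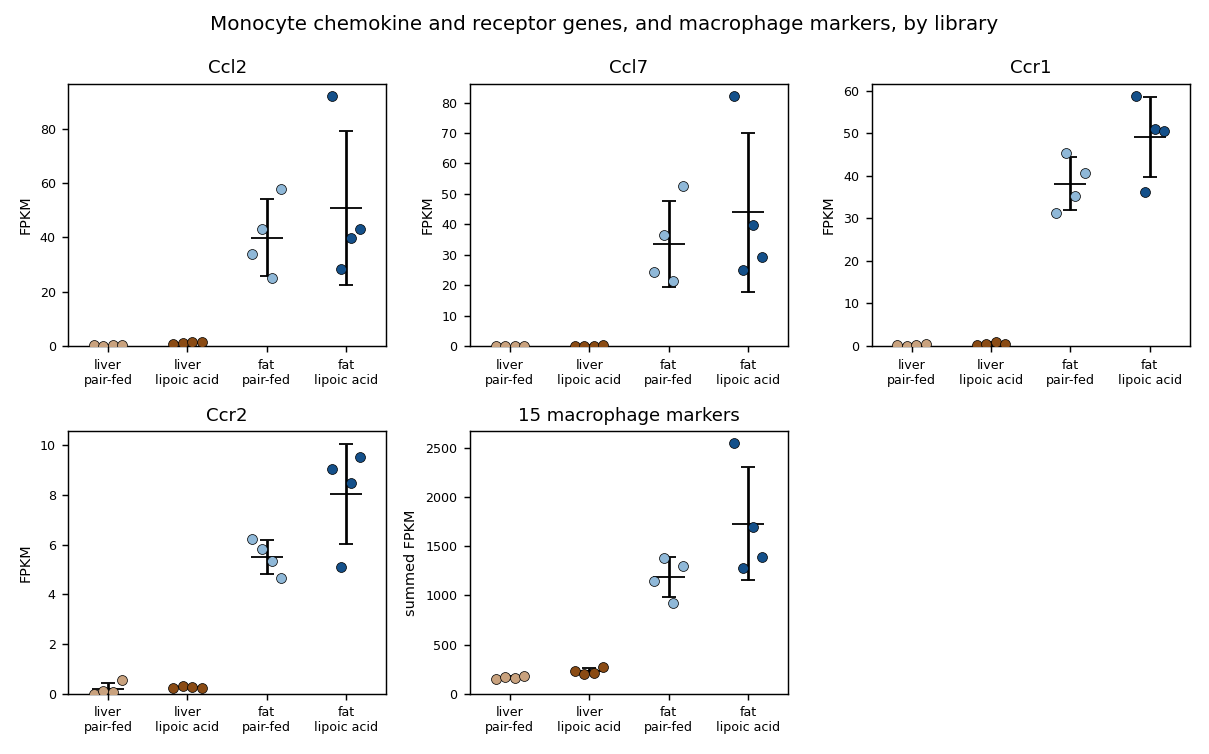
FPKM (y axes, from 0) of Ccl2, Ccl7, Ccr1 and Ccr2 and the summed FPKM of 15 macrophage markers in each of the 16 libraries, by tissue and feed; points are libraries, horizontal bars the mean and whiskers 1 SD (n = 4). Fat exceeds liver in every panel, and 1 treated fat library is the highest for Ccl2 (91.9), Ccl7 (82.1) and the marker sum (2548).

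Between the tissues the genes differed far more than between the feeds. Of 55 genes tested in pair-fed rats, 27 were called higher in fat and 10 higher in liver (limma adjusted p under 0.05 and a log2 fold change beyond 1). Over all genes 36.3% were higher and 11.1% lower in fat. Under lipoic acid 27 and 8 of 58 were called, where 36.0% and 10.5% of all genes were. Of 55 genes tested under both feeds, 26 were called higher in fat and 7 higher in liver in each, and none in opposite directions. Ccl4 was called higher in liver only under lipoic acid (-1.65), and Il3ra higher in fat only there (1.37), with the differences between the feeds not called. These counts describe levels, since 19 of the 60 genes reached 1 FPKM in 4 files only in fat and 5 only in liver. For those genes the rule itself favoured a difference between the tissues, without requiring one, so their tissue calls here and below are descriptions. Leaving out any 1 of the pair-fed fat libraries let only 40 genes into the test and brought the 37 calls to 22 to 24, and leaving out treated fat replicate 4 brought the 35 to 23. The median of all genes was itself 0.66 higher in fat in pair-fed rats and 0.65 under lipoic acid. With each library centred on its median, 21 genes were higher in fat and 13 in liver in pair-fed rats, and 21 and 19 under lipoic acid. Over all genes that centring gave 2253 and 2064 of 11492 in pair-fed rats, and 2292 and 1985 of 11568 under lipoic acid. Liver and fat came from the same rats without a known pairing, and each tissue comparison treats its 8 libraries as independent.

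**Figure D5:**
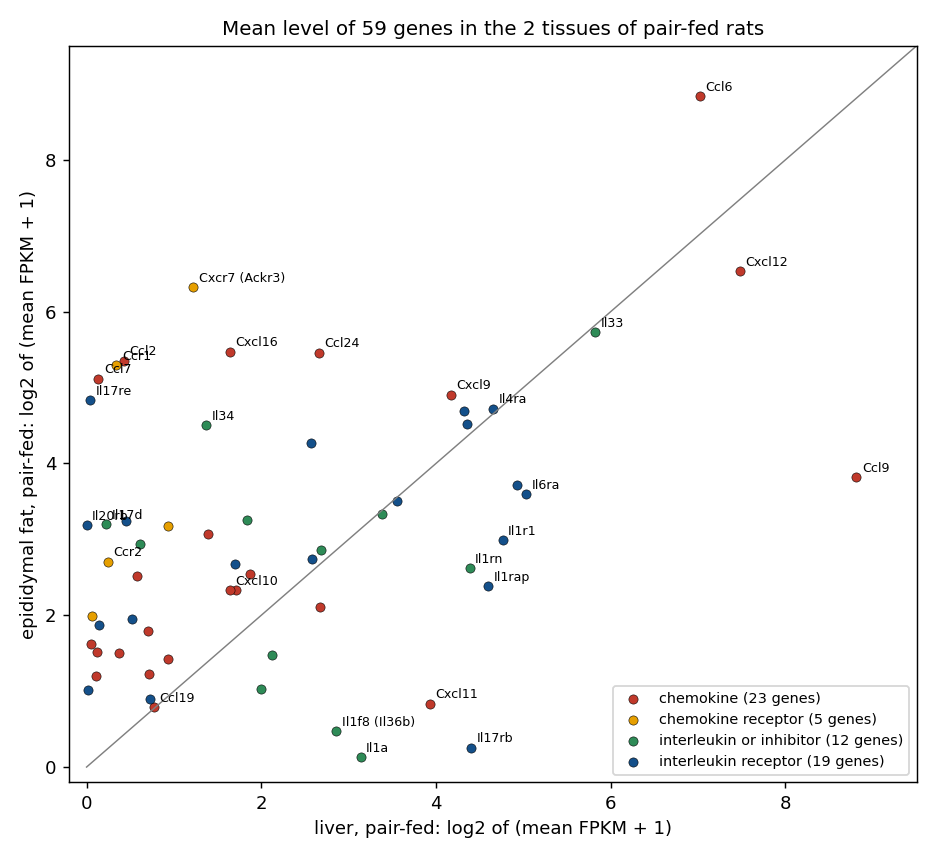
Mean level of 59 of the genes in pair-fed rats, as log2 of (mean FPKM + 1), in liver (x axis) and epididymal fat (y axis); each point is a gene, coloured by class, the line marks equal levels, and selected genes are named. Ccl9 lies far below the line (449 FPKM in liver, 13.1 in fat), and Cxcr7, Ccr1, Ccl2, Ccl7 and Il17re lie far above it.

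Chemokine RNA was similar in sum in pair-fed liver and fat but was led by a different gene in each. The 23 chemokines summed to 812 ± 41.1 FPKM in pair-fed liver (SD, n = 4) and 792 ± 81.8 FPKM in pair-fed fat. Ccl9 supplied 55.2% of the liver sum and Ccl6 supplied 57.6% of the fat sum. Ccl9 was at 434, 503, 462 and 396 FPKM in pair-fed liver and 12.5, 13.0, 9.53 and 17.5 FPKM in pair-fed fat (-5.01, SE 0.15, adjusted p = 1.1e-10). Ccl6 was at 108 to 154 FPKM in liver and 415 to 543 FPKM in fat (1.82, SE 0.13, adjusted p = 1.6e-07). Cxcl12 was abundant in both, at 178 ± 15 and 91.3 ± 9.64 FPKM (-0.96, SE 0.11), just short of the fold required. Cxcl11 was the other chemokine called higher in pair-fed liver, at 14.3 ± 1.75 FPKM against 0.783 ± 0.713 FPKM in fat.

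Fat was rich in several monocyte, eosinophil and scavenging genes. The monocyte attractant Ccl12 was low in both tissues of pair-fed rats, at 1.34 FPKM on average in fat and 0.645 FPKM in liver. Ccl2 averaged 39.9 ± 14.1 FPKM in pair-fed fat and 0.341 ± 0.156 FPKM in pair-fed liver (4.87, SE 0.21), and Ccl7 33.7 ± 14.1 and 0.0981 ± 0.0661 FPKM (4.90, SE 0.23). Ccl24 averaged 42.9 ± 3.01 FPKM against 5.30 ± 0.68 FPKM (2.80, SE 0.10). Cxcl16, a chemokine that also exists as a membrane-bound scavenger receptor, was at 43.4 ± 7.71 against 2.12 ± 0.778 FPKM (3.85, SE 0.18). Cxcl14 and Cx3cl1 were lower in level but also called, at 7.38 and 1.86 FPKM in fat and 1.61 and 0.0850 FPKM in liver. Ccl11, Ccl17 and Cxcl1 were called higher in fat under both feeds. Ccl3 was called in pair-fed rats (1.08) and not under lipoic acid (0.13, adjusted p = 0.52). Cxcl9, Cxcl10 and Ccl5 were not called in pair-fed rats (0.99, 0.60 and 0.62), and under lipoic acid their fat minus liver differences were -0.40, -0.83 and 0.01.

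The chemokine receptors Cxcr7, Ccr1, Ccr2, Cxcr4 and Il8rb were called higher in fat under both feeds. In pair-fed rats Ccr1, Ccr2 and Il8rb reached the test only through the fat libraries, so their calls are descriptions. Cxcr7 averaged 79.0 ± 6.05 FPKM in pair-fed fat and 1.33 ± 0.075 FPKM in pair-fed liver (5.10, SE 0.08, adjusted p = 2.5e-12). Ccr1 averaged 38.2 ± 6.26 and 0.267 ± 0.223 FPKM (4.95, SE 0.15). Ccr2, Cxcr4 and Il8rb averaged 5.52, 8.05 and 2.98 FPKM in pair-fed fat, with differences of 2.48, 2.27 and 1.88. The neutrophil receptor Il8rb was at 4.98 FPKM in 1 pair-fed fat library and at 2.23 to 2.46 FPKM in the other 3. Macrophage marker sums also differed between the tissues, at 152 to 183 FPKM in pair-fed liver and 923 to 1376 FPKM in pair-fed fat. T cell marker sums were at 7.52 to 8.96 and 67.8 to 82.3 FPKM. Only 3 of those 13 T cell markers were tested in pair-fed rats, with log2 fold changes from 0.56 to 3.20, and 2 were called higher in fat. The macrophage markers did not all go 1 way, since of 13 tested in pair-fed rats 9 were called higher in fat and 2 lower. The part of these cell markers in the receptor levels was not tested.

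Among interleukins, Il34, a ligand of the macrophage growth factor receptor, averaged 21.7 ± 1.86 FPKM in pair-fed fat and 1.58 ± 0.381 FPKM in liver (3.14, SE 0.12). Il17d averaged 8.17 ± 0.884 and 0.166 ± 0.0651 FPKM (2.97, SE 0.10), and Il16 and Il15 were called higher in fat too, at 6.64 and 8.55 FPKM there. Il1a was the reverse, at 7.81 ± 1.90 FPKM in liver and 0.0941 ± 0.0647 FPKM in fat (-2.99, SE 0.14). Il1f8 was at 6.24 ± 0.678 and 0.385 ± 0.367 FPKM (-2.42, SE 0.17). Il33 was the most abundant interleukin in both tissues, at 55.7 ± 13.9 FPKM in pair-fed liver and 52.1 ± 1.25 FPKM in pair-fed fat, a difference of -0.06 (SE 0.14). Il18 and Il18bp also did not pass (0.14 and -0.07), and Il18 overlaps Bco2, which averaged 24.3 FPKM in pair-fed liver and 0.954 FPKM in pair-fed fat.

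The receptors of the IL-1 family were higher in liver except for the receptor of IL-33. Il1rap averaged 23.2 ± 1.62 FPKM in pair-fed liver and 4.22 ± 0.33 FPKM in fat (-2.21, SE 0.09), and Il1r1 26.1 ± 4.23 and 6.93 ± 2.07 FPKM (-1.80, SE 0.17). The antagonist Il1rn averaged 19.9 ± 2.18 and 5.15 ± 0.837 FPKM (-1.77, SE 0.12, adjusted p = 9.1e-08) in pair-fed rats, but 12.4 ± 0.86 and 9.41 ± 3.96 FPKM under lipoic acid (-0.43, SE 0.22, adjusted p = 0.084). Il1rl1 was at 2.68 ± 0.16 FPKM in pair-fed fat and 0.107 ± 0.0832 FPKM in liver. Il6ra and Il13ra1 were called higher in liver in pair-fed rats (-1.43 and -1.20), and their differences under lipoic acid, -0.90 and -0.56, were within the fold limit.

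The IL-17 receptor genes divided between the tissues. Il17re, known from epithelial responses to IL-17C, averaged 27.4 ± 3.28 FPKM in pair-fed fat and was at 0, 0, 0.0309 and 0.0912 FPKM in pair-fed liver (4.78, SE 0.10). Il17rb averaged 0.195 ± 0.158 FPKM in fat and 20.1 ± 8.05 FPKM in liver (-4.06, SE 0.26). Chdh, which overlaps Il17rb on the opposite strand, averaged 100 FPKM in pair-fed liver and 0.745 FPKM in pair-fed fat. The liver values of Il17rb may therefore hold Chdh fragments, and their part was not tested. Il17ra, the shared subunit, was at 10.4 ± 0.976 and 10.8 ± 1.10 FPKM and Il17rc at 5.66 ± 0.864 and 4.98 ± 1.12 FPKM, and neither passed. Il20rb averaged 8.12 ± 1.41 FPKM in pair-fed fat and was listed at 0 in all 4 pair-fed livers. The common gamma chain Il2rg, shared by the receptors of IL-2, IL-4, IL-7 and IL-15, averaged 8.47 ± 1.86 FPKM in fat and 0.370 ± 0.129 FPKM in liver (2.77, SE 0.14), while Il4ra was level at 25.4 ± 4.96 and 24.2 ± 1.41 FPKM (0.05, SE 0.13). Il10ra and Il10rb, the receptor of IL-10, were both called higher in fat, at 2.85 and 18.3 FPKM against 0.439 and 4.93 FPKM. Il7r stayed near 1 FPKM throughout, from 0.561 to 1.52 FPKM, and was the only gene of the 60 that reached 1 FPKM in 4 files in neither tissue alone.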

How the data were processed

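RNA-seq was made from 16 libraries, 4 for each tissue and feed. Values are FPKM per gene symbol, as the authors deposited them, 1 file a library. The submitters' processing notes name TopHat (given as version 0.12.8), Cuffdiff and CASAVA 1.8.2. No source used here gives the build or the annotation. The TruSeq kit named in the labels' protocols does not mark strand. Depth is unknown in reads. From the files, a gene was kept where 4 or more of the libraries compared reached 1 FPKM and log2(FPKM + 1) was tested with limma 3.58.1 (trend, R 4.3.3) over all such genes, with Benjamini-Hochberg adjustment. Calls were made at an adjusted p under 0.05, and the tissue comparisons further required a log2 fold change beyond 1. The scripts were tested on simulated data. The 60 genes and all lists were chosen with earlier results of these data known. Every called gene was named up to 25 a comparison (by adjusted p), otherwise the 5 with the smallest p, plus a preset of immune genes and up to 10 for their level. The Cxcl9, Cxcl10 and Cxcl11 stretches were chosen after values were seen. Alternatives were pseudocount 0.1, no filter, median centring, a replicate block, no genes with zeros, 1 model of all 16 libraries, another threshold and leaving out each library. The labels call the libraries biological replicates. Some items are not reported here. On the gene lists, 18 names were not found in the files and 9 were found under an older one.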

Additional observations from a re-analysis of the deposited data

Results flagged for a closer look

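In 186 groups of 4 libraries, 1 library stood apart from the other 3 in 12 (by Dixon's ratio of the gap to the range), and chance alone gives about 1 in 20. The library was the highest of its group each time. In liver these were Cxcl9 in pair-fed replicate 4, at 40.3 FPKM against 7.80 to 11.6 in the others, Ccl4 in pair-fed replicate 2, at 14.3 FPKM against 1.19 to 3.09, Il33 in pair-fed replicate 3, at 76.2 FPKM against 45.9 to 50.8, and Il1b in treated replicate 4, at 8.75 FPKM against 2.43 to 3.05. In pair-fed fat, replicate 4 was high for Cxcl10 (7.85 FPKM against 2.27 to 3.17) and Ccl3 (3.42 FPKM against 1.25 to 1.37). Replicate 1 of that group was high for Cxcr4 (8.85 FPKM against 7.72 to 7.85) and for Il8rb (4.98 FPKM against 2.23 to 2.46). Il17ra in replicate 2 (11.8 FPKM against 9.88 to 9.93) and Cxcr7 in replicate 3 (88.0 FPKM against 75.3 to 77.0) were the other 2 of pair-fed fat. In treated fat, replicate 1 was high for Ccl21b (16.4 FPKM against 0.724 to 2.65) and for Ccl4 (2.06 FPKM against 0.878 to 0.999).

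Il1rn was noted because its feed effect differed between the tissues by the test of that difference (1.34 on the log2 scale, limma adjusted p = 0.039), with the limits given beside it in the report.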

How the results depend on the processing

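The 60 genes gave 8 calls for feed in liver, 0 in fat, 1 for the difference of feed effects, and 37 and 35 between tissues. At an adjusted p under 0.1 the liver count was 13 (848 over all genes, against 435), and over all genes the difference of feed effects gave 94 against 46. Without the filter on low values that difference had 0 of the 60 genes and 22 of all genes. In fat, all genes gave 1 call with pseudocount 0.1, 0 without genes listed at 0, and 7 with all 16 libraries in 1 model, against 2. With an adjusted p alone, 9727 genes differed between the tissues in pair-fed rats and 9788 under lipoic acid. Leaving out 1 library gave 5 to 11 of the 60 genes and 208 to 404 of all genes for feed in liver (5 without pair-fed replicate 1 or 2, and over all genes 267 without pair-fed replicate 1 and 208 without treated replicate 2). It gave 0 and 0 to 2 in fat (0 without treated replicate 2 or 3), 0 to 1 and 19 to 60 for the difference of feed effects (19 to 30 without pair-fed liver replicate 1, treated liver replicate 2, pair-fed fat replicate 1, 2 or 4, or treated fat replicate 2 or 4), and 22 to 36 and 23 to 33 of the 60 genes between the tissues, in pair-fed and treated rats, where fewer fat libraries let fewer genes pass the filter (over all genes 3932 to 5136 and 3907 to 5055). Of 591 single-gene values under alternatives for feed in liver, 20 lost a call, 17 gained one and none reversed. For feed in fat, 806 of 806 kept their side of the threshold and no call reversed.

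Replicate numbers are shared by the groups. The correlation of same-numbered libraries' deviations ran from -0.00349 to 0.138 for feed in liver and from -0.414 to -0.132 in fat, and between liver and fat from -0.0395 to 0.377 in pair-fed rats and from -0.288 to 0.167 under lipoic acid. Not every one was above 0.1, so the numbers are not taken to pair libraries. With a replicate block, liver gave 9 of the 60 genes (Cxcl9, Ccl12 and Il17rb gained, with adjusted p of 0.034, 0.030 and 0.0082, Ccl19 and Il33 lost, at 0.051 and 0.065), fat gave 0 of the 60 and 1 of all genes, the difference of feed effects 0 (Il1rn at 0.053), and the tissue counts stayed at 37 and 35. FPKM carry no read counts, so no counting interval is given, and values near 0 rest on few fragments.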
